A study of Homo sapiens with 4 samples.

Results

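The genes that sense DNA damage and repair it were followed in 2 human mantle cell lymphoma cell lines, REC-1 and Z138, on 4 expression arrays. The set holds 45 genes chosen by name. Of these, 41 have a probe set of their own among the 18239 genes named on the array, and all 41 are among the 10823 genes bright enough to be kept. BRCA2, RBBP8, FANCA and FANCD2 are not analysed here. Per the labels, the groups are REC-1 with CC-292, REC-1 control, Z138 with CC-292 and Z138 control, each a single array. CC-292 inhibits Bruton tyrosine kinase (BTK), which passes on the B-cell receptor signal. By the treatment protocol CC-292 was given at 1 uM for 48 h. A dose of 1 mM stands in both treated titles instead, and the Z138 control title has no time. Both lines are cultured malignant B cells, so each stands for 1 tumour grown without its tissue.

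When both strands of DNA break, the MRE11-RAD50-NBN complex binds the ends and activates the kinase ATM, and stretches of single-stranded DNA activate the kinase ATR. These kinases mark the surrounding chromatin through H2AX and halt the cell cycle through CHEK2 and CHEK1. The break is then joined directly (end joining) or copied from the sister chromatid (homologous recombination), while the Fanconi anaemia pathway opens crosslinks between strands. B cells cut and rejoin their own antigen receptor genes, and ATM is among the genes most often lost or mutated in mantle cell lymphoma.

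Values are log2 signals of the brightest probe set of each gene, and 1 unit is a 2-fold difference. With 1 array per group there is no error between cultures, so the main differences are given with the SD over the gene's probe sets that reach the brightness minimum. A gene with 1 such probe set (14 of the 41) has no SD, and the SD pooled over all genes applies, 0.31 for CC-292 in REC-1, 0.25 for CC-292 in Z138 and 0.48 between the control arrays. Kept genes are those whose highest value reached the median of all values, log2 4.63. The 41 genes lay above it on every array, apart from PMS2.

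The arrays differed in ways that run along with the lines. The 3' minus 5' difference of the ACTB control probe sets was 0.53 and 0.77 in REC-1 (CC-292, control), against 1.11 and 1.12 in Z138 (CC-292, control). For GAPDH the lines were closer, at -0.31 and -0.32 in REC-1 (CC-292, control) and -0.24 and -0.28 in Z138 (CC-292, control). The median hybridization control was 10.51 and 10.67 in REC-1 (CC-292, control) and 10.34 and 10.17 in Z138 (CC-292, control). Their part in the line differences was not tested. All 7 measured B-cell markers of 8 were kept, as were CCND1 and SOX11, the cyclin and the transcription factor typical of this lymphoma, and 0 of 7 measured myeloid markers. Summed on the linear scale, B-cell markers gave 11534 and 10315 in REC-1 (CC-292, control) and 5293 and 6220 in Z138 (CC-292, control). The 5 stromal markers, of which 4 were kept, gave 927 and 977 in REC-1 (CC-292, control) and 5699.7 and 5674 in Z138 (CC-292, control), mostly from VIM. Of 8 measured T and NK cell markers 4 were kept, and the sums over all 8 were 145 and 140.5 in REC-1 (CC-292, control) and 220.3 and 216 in Z138 (CC-292, control), with CD3G and CD247 brighter in Z138. The part of these markers in the line differences was not tested.

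Promoters are shown for the members past a 2-fold difference between the control arrays that had a promoter window in the table used. These were ATM, CHEK1 and H2AX, all higher in REC-1, and FANCF, lower in REC-1. Each sequence is the 250 bases before the annotated start, from RefSeq on GRCh38.p14. Capitals mark CCAAT, the CHR element TTTGAA and the E2F-like motif TTTNNCG with C or G at each N, on either strand. ATM lies at chr11:108222817-108223066 on the + strand, CHEK1 at chr11:125625979-125626228 on the + strand, H2AX at chr11:119095466-119095715 on the - strand and FANCF at chr11:22625824-22626073 on the - strand.
ATM: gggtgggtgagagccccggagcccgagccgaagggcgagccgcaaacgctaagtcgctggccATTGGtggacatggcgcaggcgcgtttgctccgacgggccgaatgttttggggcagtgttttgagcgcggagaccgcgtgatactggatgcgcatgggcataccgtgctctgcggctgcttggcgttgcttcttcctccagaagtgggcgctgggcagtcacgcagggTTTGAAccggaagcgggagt
CHEK1: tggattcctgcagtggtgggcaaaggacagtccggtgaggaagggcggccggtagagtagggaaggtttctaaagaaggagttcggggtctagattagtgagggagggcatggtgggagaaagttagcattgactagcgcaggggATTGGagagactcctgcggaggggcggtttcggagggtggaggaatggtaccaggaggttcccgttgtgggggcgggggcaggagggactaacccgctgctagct
H2AX: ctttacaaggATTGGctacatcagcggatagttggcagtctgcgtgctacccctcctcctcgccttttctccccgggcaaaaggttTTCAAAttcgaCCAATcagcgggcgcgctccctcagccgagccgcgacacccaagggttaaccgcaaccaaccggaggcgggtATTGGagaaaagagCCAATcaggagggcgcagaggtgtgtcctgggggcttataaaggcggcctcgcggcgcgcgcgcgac
FANCF: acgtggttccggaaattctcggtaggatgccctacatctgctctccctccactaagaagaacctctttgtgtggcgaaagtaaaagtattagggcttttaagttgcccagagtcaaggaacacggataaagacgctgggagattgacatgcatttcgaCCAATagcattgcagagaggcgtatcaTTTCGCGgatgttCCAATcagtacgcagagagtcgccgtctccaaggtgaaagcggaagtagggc
The ATM and H2AX promoters hold a CHR match, H2AX holds 4 CCAAT matches, and only FANCF of the 4 holds an E2F-like match. Among the promoter windows of kept genes, 37.4% had a CCAAT match, 10.1% a CHR match and 13.6% an E2F-like match. Whether the matches are used in these cells was not tested.

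The first comparison asked how the lines differ. ATM, CHEK1 and H2AX were 3.48- to 3.8-fold brighter on the REC-1 control array than on the Z138 control array. The Fanconi anaemia genes among the 41 were all dimmer in REC-1. A 2-fold difference was reached by 5 of 41 genes, 3 with more signal in REC-1 and 2 with less, where the background over kept genes is 24.3% (11.9% higher, 12.4% lower). At 1.5-fold there were 19, 7 higher and 12 lower, where the background is 43.9% (22.2% higher, 21.7% lower).

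ATM had signals of 9.66 and 9.13 in REC-1 (CC-292, control), against 7.47 and 7.24 in Z138 (CC-292, control). CHEK1, which halts the cell cycle when replication stalls, had 9.68 and 10.23 in REC-1 (CC-292, control), against 8.37 and 8.44 in Z138 (CC-292, control). H2AX, the histone variant that is phosphorylated around breaks, had 12.13 and 12.37 in REC-1 (CC-292, control) and 10.64 and 10.44 in Z138 (CC-292, control). In all 3 genes both REC-1 arrays lay more than 1 unit above both Z138 arrays. The difference between the controls was 1.89 for ATM (SD 0.50 over 5 probe sets), 1.80 for CHEK1 (SD 0.33 over 6 probe sets) and 1.93 for H2AX on its only probe set. Every probe set of ATM and of CHEK1 was higher in REC-1.

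Averaged over both agents, with the agent as a block, limma gave REC-1 minus Z138 differences of 2.04 ± 0.17 (SE) for ATM (adjusted p = 0.000594), 1.55 ± 0.19 for CHEK1 (adjusted p = 0.00212) and 1.70 ± 0.18 for H2AX (adjusted p = 0.00138). The p-values in this fit rest on the part of the CC-292 difference that the lines do not share, on 1 residual degree of freedom. That error is moderated over all kept genes and holds no error between cultures, since there are no replicate cultures. The fit called 20 of the 41 genes, 5 higher and 15 lower in REC-1, against 44.7% of all kept genes (21.6% higher, 23.1% lower). The share called is near the background. Fewer cells that carry a transcript and less of it per cell cannot be told apart in such cultures.

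The other sensors were split. NBN, the MRE11 partner that recruits ATM, was at 9.88 on both REC-1 arrays, against 9.27 and 9.23 in Z138 (CC-292, control). Its 5 probe sets all pointed to REC-1, with a control difference of 0.65 (SD 0.42) and an average of 0.63 ± 0.16 (limma adjusted p = 0.023). RAD50, the ATPase of the same complex, differed by 0.27 (SD 0.53 over 3 probe sets) and was not called. ATR differed by -0.34, its activator TOPBP1 by -0.07 (SD 0.23 over 2 probe sets), CHEK2 by 0.06 (SD 0.28 over 3 probe sets) and MDC1, which reads phosphorylated H2AX, by -0.48 (SD 0.22 over 3 probe sets). None of these 4 was called by limma, with adjusted p from 0.132 to 0.503. TP53BP1, which protects ends from resection, was 0.65 higher (SD 0.49 over 3 probe sets), with a limma adjusted p of 0.0548.

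In homologous recombination, limma called 5 of 11 measured genes lower and 1 higher in REC-1, a share near the 44.7% of kept genes called in either direction. BRCA1 had 6.84 and 7.22 in REC-1 (CC-292, control), against 8.09 and 8.16 in Z138 (CC-292, control). Its ubiquitin ligase partner BARD1 had 7.79 and 8.18 in REC-1 (CC-292, control) and 9.16 and 9.06 in Z138 (CC-292, control). Both REC-1 arrays were thus below both Z138 arrays for either subunit, as for 38.9% of kept genes. The averages were -1.1 ± 0.17 for BRCA1 (limma adjusted p = 0.00456, 4 of 4 probe sets lower) and -1.12 ± 0.19 for BARD1 (limma adjusted p = 0.00593, 1 probe set). PALB2, which joins BRCA1 to BRCA2, differed by 0.07 between the controls and its lines overlapped.

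The DNA-end nuclease EXO1 and the RecQ helicases BLM and WRN were also lower in REC-1. WRN had 6.12 and 6.67 in REC-1 (CC-292, control), against 7.73 and 7.49 in Z138 (CC-292, control), an average of -1.22 ± 0.23 (limma adjusted p = 0.00937). EXO1 averaged -0.85 ± 0.18 and BLM -0.78 ± 0.18 in the same fit (adjusted p = 0.0138 and 0.0172). Of the remaining genes of this role, RAD51D was called higher at 0.54 ± 0.16 (limma adjusted p = 0.0382). That call was lost with the mean of its probe sets (0.19, adjusted p = 0.32). RAD51C, XRCC2 and XRCC3 averaged 0.32, -0.81 and 0.48 with limma adjusted p of 0.154, 0.0732 and 0.122, and the motor protein gene RAD54L averaged -0.31 (adjusted p = 0.166).

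All 8 measured members of the Fanconi anaemia pathway were below 0 in the control comparison, with a median of -0.62. Over all kept genes the median was 0.02, and 48.9% were below 0. This did not hold for every measured gene of the pathway. Outside the set, 3 of 4 measured Fanconi genes were above 0 (median 0.26), and UBE2T was at -0.97. Of the 8, 7 were called lower by limma, against 23.1% of kept genes. FANCF, an adaptor of the core ubiquitin ligase, had 6.21 and 5.84 in REC-1 (CC-292, control), against 7.79 and 8.02 in Z138 (CC-292, control). FANCI, which is ubiquitinated together with FANCD2, had 7.91 and 8.17 in REC-1 (CC-292, control) and 9.45 and 9.30 in Z138 (CC-292, control). Between the control arrays no other of the 41 genes was 2-fold lower in REC-1. On the CC-292 arrays further genes were, among them WRN at -1.62 and BARD1 at -1.37. FANCF was lower by 2.17 between the controls (SD 0.70 over 3 probe sets, all lower) and by an average of 1.88 ± 0.20 (limma adjusted p = 0.00137). FANCI averaged -1.33 ± 0.18 (limma adjusted p = 0.00292) and was lower on 3 of 3 probe sets.

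Other members of the core complex were less far apart. FANCL, its catalytic subunit, averaged -0.71 ± 0.16 (limma adjusted p = 0.0175). FANCE averaged -0.75 ± 0.16 and FANCG -0.64 ± 0.19 (limma adjusted p = 0.0146 and 0.0388). Both calls were lost when the median probe set was used for all genes, and that of FANCG without the brightness filter too. FANCG has only 1 probe set, so its own values were the same in that setting. FANCC was called at -0.79 ± 0.17 (limma adjusted p = 0.0135), yet its other 2 probe sets were higher in REC-1, and the mean over its 3 probe sets was 0.24 between the controls. The helicase gene BRIP1 averaged -0.74 ± 0.19 (limma adjusted p = 0.0233), while FANCB, on the X chromosome, averaged -0.27 ± 0.16 and was not called (adjusted p = 0.219).

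For end joining, both Ku subunits, the ring that first grips a broken end, were lower in REC-1. XRCC5 had 10.18 and 10.42 in REC-1 (CC-292, control), against 11.18 and 11.15 in Z138 (CC-292, control). XRCC6 had 10.12 and 10.29 in REC-1 (CC-292, control) and 11.06 and 11.13 in Z138 (CC-292, control). The lines did not overlap for either gene, as for 76.8% of kept genes. The averages were -0.87 ± 0.17 and -0.89 ± 0.16 (limma adjusted p = 0.00958 and 0.0072). PRKDC, the catalytic kinase that Ku recruits, averaged 0.36 ± 0.16 (limma adjusted p = 0.112). The ligase LIG4 and its scaffold XRCC4 averaged 0.08 and 0.02, and their lines overlapped.

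In single-strand break repair 0 of 5 genes were called by limma, against 44.7% of kept genes. PARP1, which detects nicks, averaged -0.34 ± 0.17 (adjusted p = 0.167), and PARP2, the scaffold XRCC1, the ligase LIG3 and the polymerase POLQ of alternative end joining lay between -0.35 and -0.17. In mismatch repair, the mispair sensor MSH6 averaged -0.72 ± 0.17 (limma adjusted p = 0.0178). PMS2 averaged 0.00, but its only probe set was near the brightness minimum, and PMS2 has pseudogenes of similar sequence, so its value is uncertain. Over all roles, the lines did not overlap for 36 of 41 genes, 10 higher and 26 lower in REC-1, against 76.8% of kept genes (37.9% higher, 38.9% lower).

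**Figure D1:**
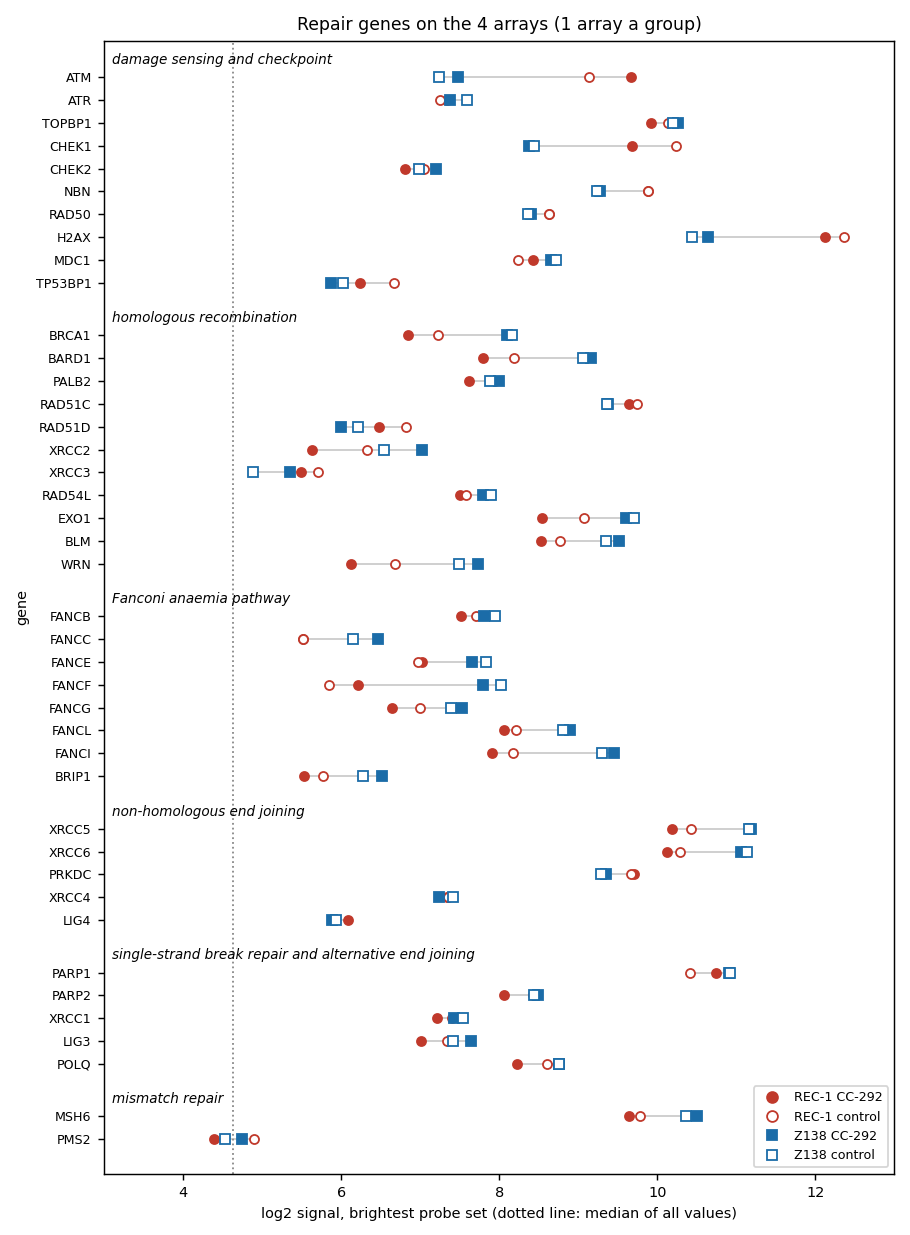
Log2 signal of the brightest probe set (x axis) of the 41 measured repair genes (y axis, by role) on the 4 arrays, 1 array a group, with the median of all values as a dotted line. In ATM, CHEK1 and H2AX both REC-1 points lie right of both Z138 points, and in FANCF and FANCI left of them.

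**Figure D2:**
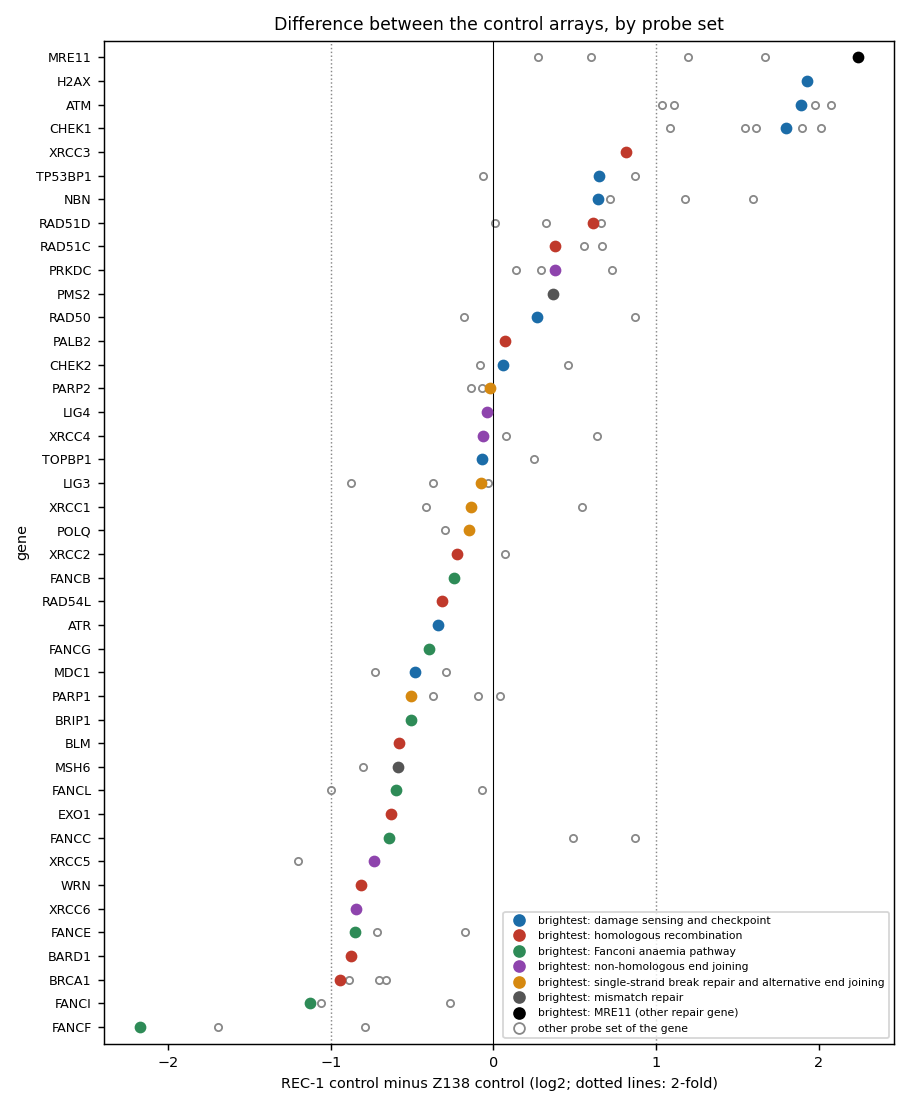
REC-1 control minus Z138 control on the log2 scale (x axis) for each repair gene and MRE11 (y axis), with the brightest probe set filled by role and the other probe sets that reach the brightness minimum open. All probe sets of ATM, CHEK1 and FANCF lie on 1 side of 0, while those of FANCC lie on both.

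The genes at the top of the line comparison share a chromosome. ATM, CHEK1 and H2AX all lie on chromosome 11, as does MRE11, the nuclease of the complex that activates ATM. MRE11 had 9.43 and 9.65 in REC-1 (CC-292, control), against 7.22 and 7.41 in Z138 (CC-292, control), and averaged 2.23 ± 0.16 (limma adjusted p = 0.000343). It was the highest of 79 other repair genes in the control comparison, at 2.24 (SD 0.80 over 5 probe sets, all higher). Each gene was therefore set beside its neighbours, the 20 kept genes on either side in the RefSeq gene order, a description chosen after these values were seen.

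Around ATM, 37 of 40 neighbours were higher on the REC-1 control array, with a median of 1.37, and 27 were at least 2-fold higher. Such medians ran from -1.43 to 1.45 over all kept genes, with 0.60 as the 95th percentile. ATM thus lies in one of the stretches that differ most between these lines. The median was 1.17 around MRE11, 1.01 around H2AX and 0.73 around CHEK1. ATM and MRE11 share 7 neighbours and H2AX and CHEK1 share 9, so these windows are not independent. On the CC-292 arrays the medians were 1.21 around ATM, 1.01 around MRE11, 0.91 around H2AX and 0.76 around CHEK1.

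Several genes that were lower in REC-1 had neighbours that were lower as well. The median was -0.65 around BRCA1 (34 of 40 neighbours below 0), -0.74 around BARD1, -0.74 around XRCC5, -0.72 around WRN, -0.60 around XRCC6, -0.59 around FANCI and -0.56 around BLM. BARD1 and XRCC5 share 34 neighbours, and BLM and FANCI share 27. NBN and PRKDC, on the same chromosome as WRN, had higher neighbours, with medians of 0.77 and 0.68. In all, 13 of 41 repair genes had a neighbour median at least 0.5 from 0, against 17.9% of kept genes, and the own difference of all 13 had the sign of that median, LIG4 by only -0.04. Among all kept genes past that distance, 80.4% did. With no such distance asked, 24 of 41 repair genes (58.5%) had the sign of their neighbours, against 64.5% of kept genes.

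FANCF and LIG4 were among the genes that stood apart from their surroundings. FANCF is also on chromosome 11, where its neighbours had a median of 0.08 against its own -2.17. LIG4 differed by -0.04 between the controls, although 35 of its 40 neighbours on chromosome 13 were lower in REC-1, with a median of -1.13. On the CC-292 arrays LIG4 was at 0.21 and its neighbours at -1.32. Between the controls FANCE (-0.85), FANCC (-0.64) and FANCL (-0.60) were lower too, with neighbour medians of 0.20, 0.08 and 0.22. For FANCC this rests on its brightest probe set, since the mean over its probe sets was 0.24. FANCI and BRIP1 had the sign of their neighbours. The number of gene copies was not measured, and its part in these differences was not tested.

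**Figure D3:**
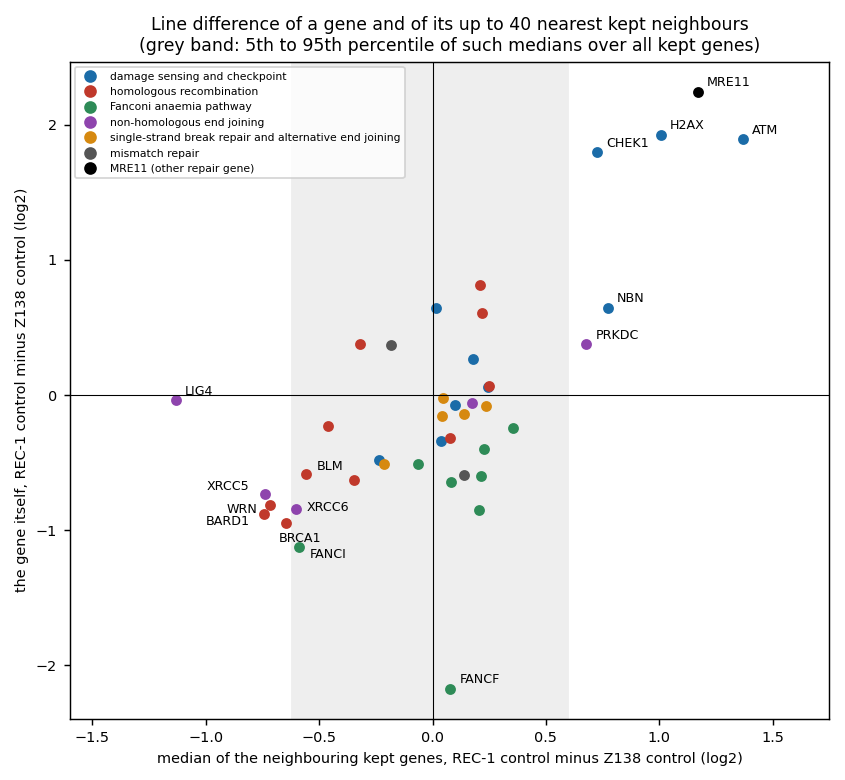
REC-1 control minus Z138 control on the log2 scale for each repair gene (y axis) against the median of its up to 40 nearest kept neighbours (x axis), with a grey band from the 5th to the 95th percentile of such medians. ATM, H2AX, CHEK1 and MRE11 lie at the upper right, and FANCF lies far below 0 with a neighbour median of 0.08.

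In REC-1, the array of cells given CC-292 was set against its control. Most repair genes were slightly lower on the CC-292 array, and ATM was the member furthest above 0. Of 41 genes, 30 were below 0, with a median of -0.22, against 57.8% below 0 and a median of -0.05 over all kept genes. No member reached 2-fold, where the background is 1.6% (0.841% higher, 0.758% lower), and 1 of 41 reached 1.5-fold, a lower one, where it is 9.05% (4.32% higher, 4.73% lower). The differences were small, and the cultures have no replicates.

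All 11 measured genes of homologous recombination were below 0 in REC-1, with a median of -0.34. XRCC2 had 5.63 on the CC-292 array against 6.32 on the control array, but its second probe set was 0.18 higher, and the SD over both was 0.61. WRN was at -0.56 and EXO1 at -0.53, each on 1 probe set. BRCA1 was at -0.38 (SD 0.54 over 4 probe sets), BARD1 at -0.39, PALB2 at -0.34, RAD51D at -0.34 (SD 0.49 over 4 probe sets), BLM at -0.24 and XRCC3 at -0.22, with RAD54L at -0.07. RAD51C was at -0.10 (SD 0.23), and its 3 probe sets were all below 0, with a mean of -0.36. The SDs of XRCC2, BRCA1 and RAD51D were thus close to or larger than their differences.

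Among sensors, CHEK1 and ATM lay on opposite sides of 0 on all their probe sets. CHEK1 was lower on the CC-292 array by 0.56 (SD 0.13, 6 of 6 probe sets below 0). ATM was higher by 0.53 (SD 0.14, 5 of 5 probe sets above 0), between 0.43 and 0.78. Both differences exceed the spread over probe sets, although that spread holds no error between cultures. H2AX was at -0.24, CHEK2 at -0.23 (SD 0.31), TOPBP1 at -0.21 (SD 0.16) and TP53BP1 at -0.43 (SD 0.46), while NBN was at 0.00 (SD 0.23 over 5 probe sets), RAD50 at 0.00 (SD 0.18 over 3), ATR at 0.09 and MDC1 at 0.19 (SD 0.17).

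In the other roles, the nick sensor PARP1 was 0.33 higher (SD 0.10, 4 of 4 probe sets), while PARP2 was at -0.36 (SD 0.11, 3 of 3), POLQ at -0.38 (SD 0.02, 2 of 2), LIG3 at -0.32 (SD 0.55 over 4) and XRCC1 at -0.19 (SD 0.40 over 3). Of the Fanconi genes 5 of 8 were below 0, from FANCG at -0.34 to FANCF at 0.36 (SD 0.45, 2 of 3 above 0), with FANCI at -0.26 (SD 0.13, 3 of 3 below 0). XRCC5 was at -0.24 (SD 0.05) and XRCC6 at -0.17, with XRCC4 at -0.00 (SD 0.27 over 3) and LIG4 at 0.20. PRKDC was at 0.04 (SD 0.28), but its other 3 probe sets were below 0. MSH6 was at -0.14 (SD 0.12, 1 of 2 below 0) and PMS2 at -0.51. Of the 27 genes with at least 2 probe sets, 14 had all of them in 1 direction, against 41.7% of such genes on the whole array. Below 0 on every one were 10, against 25% on the whole array, and 4 were above 0 on every one (ATM, MDC1, FANCE and PARP1).

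Genes of the cell cycle are given for comparison, since several repair genes are made mainly in S phase. In REC-1 each of 32 replication and G1/S genes was below 0 (median -0.32), as were 27 of 29 kept mitotic and G2/M genes (median -0.27). Repair genes as a set had 30 of 41 below 0. An E2F-like motif, typical of S-phase promoters, was found in the windows (250 bases before to 50 after the start) of 14 of 40 repair genes, or 35%, against 13.6% of kept genes and 67.9% of the G1/S genes. CCAAT was found in 45% of repair genes and 37.4% of kept genes, and the CHR element in 17.5% and 10.1%. CCAAT can share its last base with the first of the other motifs. Among measured members with an E2F-like match, 6 of 12 were below 0 in REC-1 (median -0.07), and among those without 21 of 24 (median -0.24).

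The same was asked of Z138, where the repair genes stayed near their control values. The median was 0.04, with 24 of 41 above 0, and all members lay between -0.23 (FANCF) and 0.48 (XRCC2). None reached 1.5-fold, where the background is 4.7% (2.18% higher, 2.52% lower), or 2-fold, where it is 0.564% (0.213% higher, 0.351% lower). Over all kept genes 48.1% were below 0. The largest differences were those of XRCC2, 7.02 on the CC-292 array and 6.54 on the control (0.48, SD 0.06 over 2 probe sets), and XRCC3, 5.35 on the CC-292 array and 4.89 on the control. FANCC was at 0.31 (SD 0.30 over 3), ATM at 0.24 (SD 0.40, 4 of 5 probe sets above 0), CHEK2 at 0.22 (SD 0.04, 3 of 3) and CHEK1 at -0.06 (SD 0.09). Of 27 genes with at least 2 probe sets, 6 had all of them in 1 direction, against 39.2% of such genes on the whole array.

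**Figure D4:**
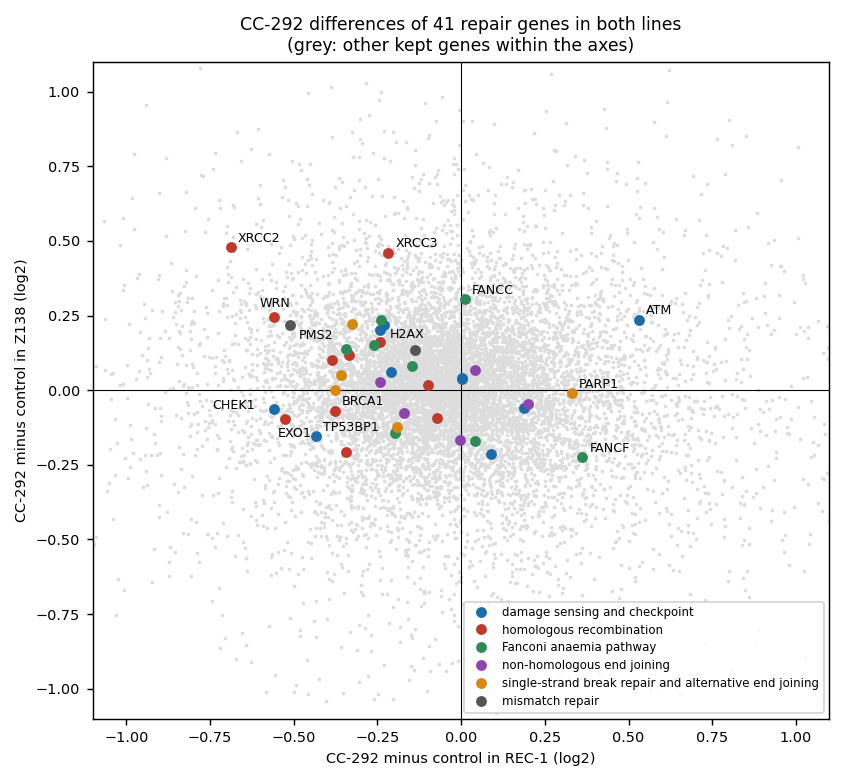
CC-292 minus control on the log2 scale in REC-1 (x axis) and in Z138 (y axis) for the 41 repair genes, coloured by role, over the other kept genes in grey. Most repair genes lie left of 0 in REC-1 and close to 0 in Z138, with ATM furthest right and XRCC2 at the upper left.

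Set side by side, 19 of 41 repair genes were below 0 in REC-1 and above 0 in Z138, against 31.4% of kept genes. The REC-1 difference minus the Z138 difference had a median of -0.27, and reached 2-fold in 1 gene, where the background is 4.11% (2.07% higher, 2.04% lower). At 1.5-fold there were 5, 1 above 0 and 4 below, where it is 16.5% (7.72% higher, 8.81% lower). The gene past 2-fold was XRCC2 at -1.17 (WRN, PMS2 and XRCC3 followed at -0.80, -0.73 and -0.68). This difference between lines cannot be tested with 1 array per group. Averaged over both lines, with the line as a block, limma called 0 of 41 repair genes and 0 of all kept genes. At an unadjusted p under 0.05 it named 0 of the 41 and 472 genes in all. ATM had the lowest p among the members, with 0.38 ± 0.17 (SE, limma unadjusted p = 0.0662, adjusted p = 1.00) and a higher value in 2 of 2 lines.

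The 85 other repair genes listed beside the members, of which 79 were measured, were centred closer to 0 in REC-1. Their median was -0.03 and 43 of 79 were below 0, and in Z138 the median was -0.01. Genes of nucleotide excision repair, which removes bulky lesions, were above 0 in 10 of 14 cases in REC-1 (median 0.12), while other checkpoint and signalling genes were below 0 in 13 of 15 (median -0.22). These included CLSPN, the adaptor that brings CHEK1 to ATR, at 5.37 on the CC-292 array and 6.21 on the control array. Other genes of homologous recombination had a median of 0.03 with 4 of 12 below 0, against 11 of 11 among the members. The remaining lists in REC-1 had medians of -0.06 (other Fanconi genes), -0.26 (other end joining), -0.04 (base excision repair), -0.03 (other mismatch repair), -0.28 (translesion synthesis) and 0.26 (direct reversal). No gene of these lists reached 2-fold with CC-292 in either line.

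Between the lines, limma called 17 of the 79 other repair genes higher and 23 lower in REC-1, a share near the background of 44.7% (21.6% higher, 23.1% lower). The widest difference was in NEIL1, a glycosylase that removes oxidised bases. It had 3.45 and 3.67 in REC-1 (CC-292, control), close to the background probes (medians 3.06 to 3.12), against 7.62 and 8.03 in Z138 (CC-292, control) (limma adjusted p = 6.6e-05). A related glycosylase gene, NEIL2, was the other way round. It had 7.08 and 7.47 in REC-1 (CC-292, control) and 4.75 and 5.45 in Z138 (CC-292, control). Its control difference of 2.02 had an SD of 1.09 over 2 probe sets, both higher in REC-1, while NEIL1 had only 1 probe set. MGMT, which removes alkyl groups from guanine, had 6.45 and 5.80 in REC-1 (CC-292, control), against 7.64 and 7.85 in Z138 (CC-292, control) (average -1.62 ± 0.24, limma adjusted p = 0.00394). ERCC5, an excision nuclease gene, averaged -1.61 ± 0.17 (limma adjusted p = 0.00133), and its neighbours on chromosome 13 had a median of -1.1.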

How the data were processed

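RNA of 4 cultures was measured on 4 arrays. The authors deposited a log2 signal for each probe set. Affymetrix Expression Console 1.1 and RMA are the tools named, per the submitters' processing notes, with settings and genome build not given in the sources used here. The log2 scale was inferred from the values (2.18 to 14.26). Of 49386 probe sets, 45259 had 1 gene symbol, 1327 several and 2800 none, and only the first were used. All 4 columns were used, through their GEO titles. Each gene took its brightest probe set by mean.

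Differences within 1 pair of arrays have no test. Averages over lines or agents were fitted to all 10823 kept genes with limma 3.58.1 in R 4.3.3 (lmFit, eBayes, Benjamini-Hochberg at 0.05), checked on simulated data. Prior degrees of freedom were 4.5. The number of arrays limits the precision. Figures and motif searches used Python 3.11.15, pandas 2.3.3, numpy 2.4.6 and matplotlib 3.10.9. Promoters came from RefSeq (GRCh38.p14), the first window listed for each gene, for 40 of 45 members. The members and lists were chosen with earlier results of these data known. All members may be named, and other repair genes when 2-fold different or among the 2 widest between lines in their list. Alternatives were 2 other brightness filters, 3 scalings, 2 other probe-set choices, thresholds of 1.5-fold and 3-fold, and limma with an intensity trend or without the block.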

Additional observations from a re-analysis of the deposited data

Results flagged for a closer look

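On its brightest probe set XRCC2 differed in opposite directions in the lines, by -1.17 as REC-1 minus Z138. It was lower with CC-292 in REC-1 and higher in Z138. Its second probe set was higher with CC-292 in both lines and gave -0.22 for the same difference. The median over the 41 repair genes also lay on opposite sides of 0, at -0.22 for CC-292 minus control in REC-1 and at 0.040 in Z138. With 1 array per group neither difference between the lines was tested.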

How the results depend on the processing

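Under every other filter, scaling and probe-set choice, the median of the 41 genes for CC-292 in REC-1 lay between -0.24 and -0.18. In Z138 the median lay between 0.02 and 0.10. The number of genes past the threshold was 1 in REC-1, 5 for the difference between lines and 19 between the controls at 1.5-fold, against 0, 1 and 5 at 2-fold. For the difference between lines it was 0 at 3-fold, and 0 with the mean of all probe sets. The number limma called between the lines ranged from 16 (probe set with the median difference) to 26 (intensity trend), and was 19 without the block, against 20. For the average CC-292 effect limma called 0 members and 0 genes in every setting tried, and named at most 3 members at an unadjusted p under 0.05. FANCC reversed to 0.30 with the probe set of median difference. RAD51D lost its call in 4 settings, FANCG in 2, FANCE in 1 and FANCC in 1. The averages already hold the line or the agent as a block. No block over replicate cultures could be fitted and no replicate left out, since each group is 1 array. Dim genes such as PMS2 and XRCC3 lie near the brightness minimum, where small differences carry little meaning.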
